A study of Mus musculus with 15 samples.

Results

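Absorption of dietary fat and storage of fat in the liver both pass a fatty acid from the membrane into a triglyceride, and 10 genes of that route were followed here across the liver and 4 sections of the mouse intestine. They were chosen by name: Fabp1, Fabp2, Cd36, Slc27a2, Slc27a4, Acsl5, Mogat2, Dgat1, Dgat2 and Plin2. Each had 1 record in the table, so they were 10 of 23349 genes. All 10 reached 1 FPKM (a fragment count divided by transcript length and by the library's mapped total) in at least 3 libraries and so were among the 13757 genes tested. The tissues were duodenum, jejunum, ileum, large intestine and liver of male C57BL/6 wild type mice of 2 to 3 months, with 3 libraries each and 15 in all. No treatment or altered allele entered any group, the gallbladder was removed from the livers, and gut contents were flushed out before the sections were frozen. A library is named by its tissue and the number in its title. The labels leave unsaid whether the 3 samples of a tissue were separate animals, so each p-value reflects variation among the samples, possibly technical in origin.

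As background, bile salts and pancreatic lipase break dietary triglyceride into fatty acids and monoacylglycerol, which enter the absorptive cells (enterocytes) of the small intestine. There a fatty acid is carried in the cytosol by small binding proteins, joined to coenzyme A, and attached to monoacylglycerol and then diacylglycerol, and the triglyceride leaves the cell in chylomicrons or waits in lipid droplets. The hepatocyte uses the glycerol phosphate route in place of most of the monoacylglycerol route, and exports triglyceride in very low density lipoprotein.

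Fabp1 with Fabp2 and Slc27a2 with Slc27a4 are pairs of related genes whose ratio within a library was far higher in liver than in every intestinal section, and their promoter windows are shown for that reason. Within the first pair Fabp1 itself overlapped between duodenum and liver. The RefSeq table for GRCm38.p6 held windows, from 250 bases before to 50 after the annotated start, for 7 of the 10 genes, all but Mogat2, Dgat1 and Dgat2. The windows lie at chr6:71199629-71199928 for Fabp1, chr3:122894822-122895121 for Fabp2, chr2:126552774-126553073 for Slc27a2 and chr2:29802384-29802683 for Slc27a4, all on the plus strand. Capitals mark 4 motifs searched on both strands: TATAAA (the TATA box), GTTAAT (part of the site that HNF1 factors bind), TTTAT (the core that Cdx factors bind, which overlaps TATAAA read on the other strand) and TGNCCT repeated 1 base apart (a direct repeat of the kind that nuclear receptors bind).
Fabp1: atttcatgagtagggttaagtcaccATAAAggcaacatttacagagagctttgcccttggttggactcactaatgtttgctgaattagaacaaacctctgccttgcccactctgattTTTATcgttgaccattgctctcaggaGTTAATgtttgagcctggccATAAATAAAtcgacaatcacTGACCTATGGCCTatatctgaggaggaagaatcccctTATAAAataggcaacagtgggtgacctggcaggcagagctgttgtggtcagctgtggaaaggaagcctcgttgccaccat
Fabp2: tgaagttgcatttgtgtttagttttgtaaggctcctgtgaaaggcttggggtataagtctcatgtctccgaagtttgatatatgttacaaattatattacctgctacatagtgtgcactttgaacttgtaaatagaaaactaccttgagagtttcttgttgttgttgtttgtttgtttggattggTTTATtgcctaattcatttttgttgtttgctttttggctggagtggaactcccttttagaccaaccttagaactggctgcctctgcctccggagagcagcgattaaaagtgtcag
Slc27a2: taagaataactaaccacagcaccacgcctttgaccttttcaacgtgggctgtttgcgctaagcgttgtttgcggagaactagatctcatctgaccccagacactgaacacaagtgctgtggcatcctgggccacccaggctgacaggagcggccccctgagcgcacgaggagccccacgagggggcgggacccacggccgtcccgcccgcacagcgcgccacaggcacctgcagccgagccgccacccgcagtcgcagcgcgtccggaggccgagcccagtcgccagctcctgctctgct
Slc27a4: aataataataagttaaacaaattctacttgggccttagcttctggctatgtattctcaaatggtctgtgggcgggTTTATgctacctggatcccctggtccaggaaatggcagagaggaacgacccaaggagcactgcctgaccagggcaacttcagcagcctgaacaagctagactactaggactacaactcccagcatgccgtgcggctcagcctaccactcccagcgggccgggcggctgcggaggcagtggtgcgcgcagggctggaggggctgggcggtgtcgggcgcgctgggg

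The Fabp1 window held all 4 motifs, with TATAAA at -30 to -25 from the start, GTTAAT at -107 to -102 and the direct repeat at -67 to -55. Fabp2 and Slc27a4 each held TTTAT once and none of the others, and the Slc27a2 window held no match. Of 32851 windows in the table, 13.6% held TATAAA, 7.1% GTTAAT, 40.0% TTTAT and 0.381% the direct repeat. The motifs were chosen with these windows seen, and a match describes letters only. In the deposited positions (mm10), Dgat2 at chr7:99153663-99182713 and Mogat2 at chr7:99219084-99238611 lay on the minus strand, 36370 bases apart. On the opposite strand, exons share 167 bases between Acsl5 and Zdhhc6, 419 between Slc27a2 and Gm26697, and 55 between Mogat2 and Gm45012 in GENCODE M21. The library kit is not stated to keep strand, so reads in those stretches cannot be assigned to either gene of a pair.

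The tissues carried the markers of their labels, with an exception. Alb, the albumin gene of hepatocytes, stood at no more than 15.5 FPKM in intestinal libraries and at 23279 to 29501 in liver libraries, and Car1, a carbonic anhydrase of colonocytes, at 468 to 2138 FPKM in large intestine. Summed FPKM of 10 enterocyte markers lay at 4746 to 4923 in duodenal libraries, 2821 to 4057 in jejunal, 3892 to 5050 in ileal, 1210 to 1651 in large intestinal and 26.4 to 29.1 in liver libraries. The exception is Fabp6, the bile acid binding protein of the ileum: the library labelled jejunum 24 had 6731 FPKM against 23.1 and 5.61 in the other jejunum libraries, and the library labelled ileum 24 had 255 against 6597 and 8112 in the other ileum libraries. Of the other ileal markers, Slc10a2 ran the same way, with 37.0 FPKM in jejunum 24 against 0.591 and 0.129, and 1.86 in ileum 24 against 21.9 and 57.9. Fgf15 separated them less, with 10.6 FPKM in jejunum 24 against 3.26 and 0.115, and 7.77 in ileum 24 against 32.4 and 11.4. For the 10 genes, each call that changed when both of these libraries, jejunum 24 and ileum 24, were left out is named below with its value. Because whole tissue was sequenced, fewer cells of a type and less RNA per cell cannot be told apart. Read depth per library is unknown, and the summed FPKM of a library ranged from 384290 to 541580. Large intestine libraries had the lowest sums, 384290 to 389240, and every other library had at least 428490.

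A gene is called higher or lower below where limma's test gave an adjusted p (Benjamini-Hochberg over 13757 genes) under 0.05 and the difference in log2(FPKM + 1) was at least 1 in size. Differences on that scale are smaller than true log2 folds for genes near 1 FPKM. The tissues share an estimate of each gene's spread, so a library also affects the SE of comparisons between other tissues. Leaving out jejunum 24 and ileum 24 kept Fabp1 in duodenum against liver at -0.30 and took its SE from 1.47 to 0.63.

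The cytosolic binding protein genes Fabp1 and Fabp2 had the highest mean FPKM of the 10 in duodenum, jejunum and ileum, and Fabp1 also in liver. In ileum that place of Fabp1 rested on ileum 24. In ileum 25 and ileum 27 Fabp1 had 299 and 38.2 FPKM, and Dgat1 had 296 and 211. Fabp1, the liver fatty acid binding protein, had 6628, 6477 and 7809 FPKM in duodenum, 116, 2547 and 4182 in jejunum, 2678, 299 and 38.2 in ileum, 1.78, 3.69 and 0.917 in large intestine, and 10129, 7131 and 8633 in liver. Duodenum and liver overlapped, and the spread within jejunum and ileum was wide, with 116 FPKM in the library labelled jejunum 24. Fabp1 was lower in ileum than in liver, by -4.76 (SE 1.47, adjusted p = 0.0106 by limma; -6.30 without the 2 libraries), and in large intestine than in liver, by -11.51 (SE 1.47, adjusted p = 1.57e-05). The means of large intestine and liver differed 4055-fold. Neither duodenum (-0.30, adjusted p = 0.858) nor jejunum (-2.99, adjusted p = 0.0786) passed the test against liver; jejunum also failed it without the 2 libraries (-1.39, adjusted p = 0.0902), but passed with median-of-ratios scaling (-3.70, adjusted p = 0.0342) and without jejunum 28, ileum 24 or ileum 27 in turn.

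Fabp2, the intestinal fatty acid binding protein, was lowest in liver. It had 2827, 2894 and 3498 FPKM in duodenum, 1616, 3521 and 3296 in jejunum, 4473, 6926 and 2472 in ileum, 180, 491 and 457 in large intestine, and 57.5, 48.3 and 51.2 in liver. Every intestinal library lay above every liver library. Relative to liver the mean stood 58.7-fold higher in duodenum and 53.7-fold in jejunum, then 88.3-fold in ileum and 7.18-fold in large intestine, with log2 differences of 5.85, 5.64, 6.32 (SE 0.42 each) and 2.69 (SE 0.42, adjusted p = 4.31e-05 by limma). Fabp2 was the only one of the 10 whose highest mean was in ileum, though ileum and duodenum overlapped (0.47, SE 0.42, adjusted p = 0.440).

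**Figure D1:**
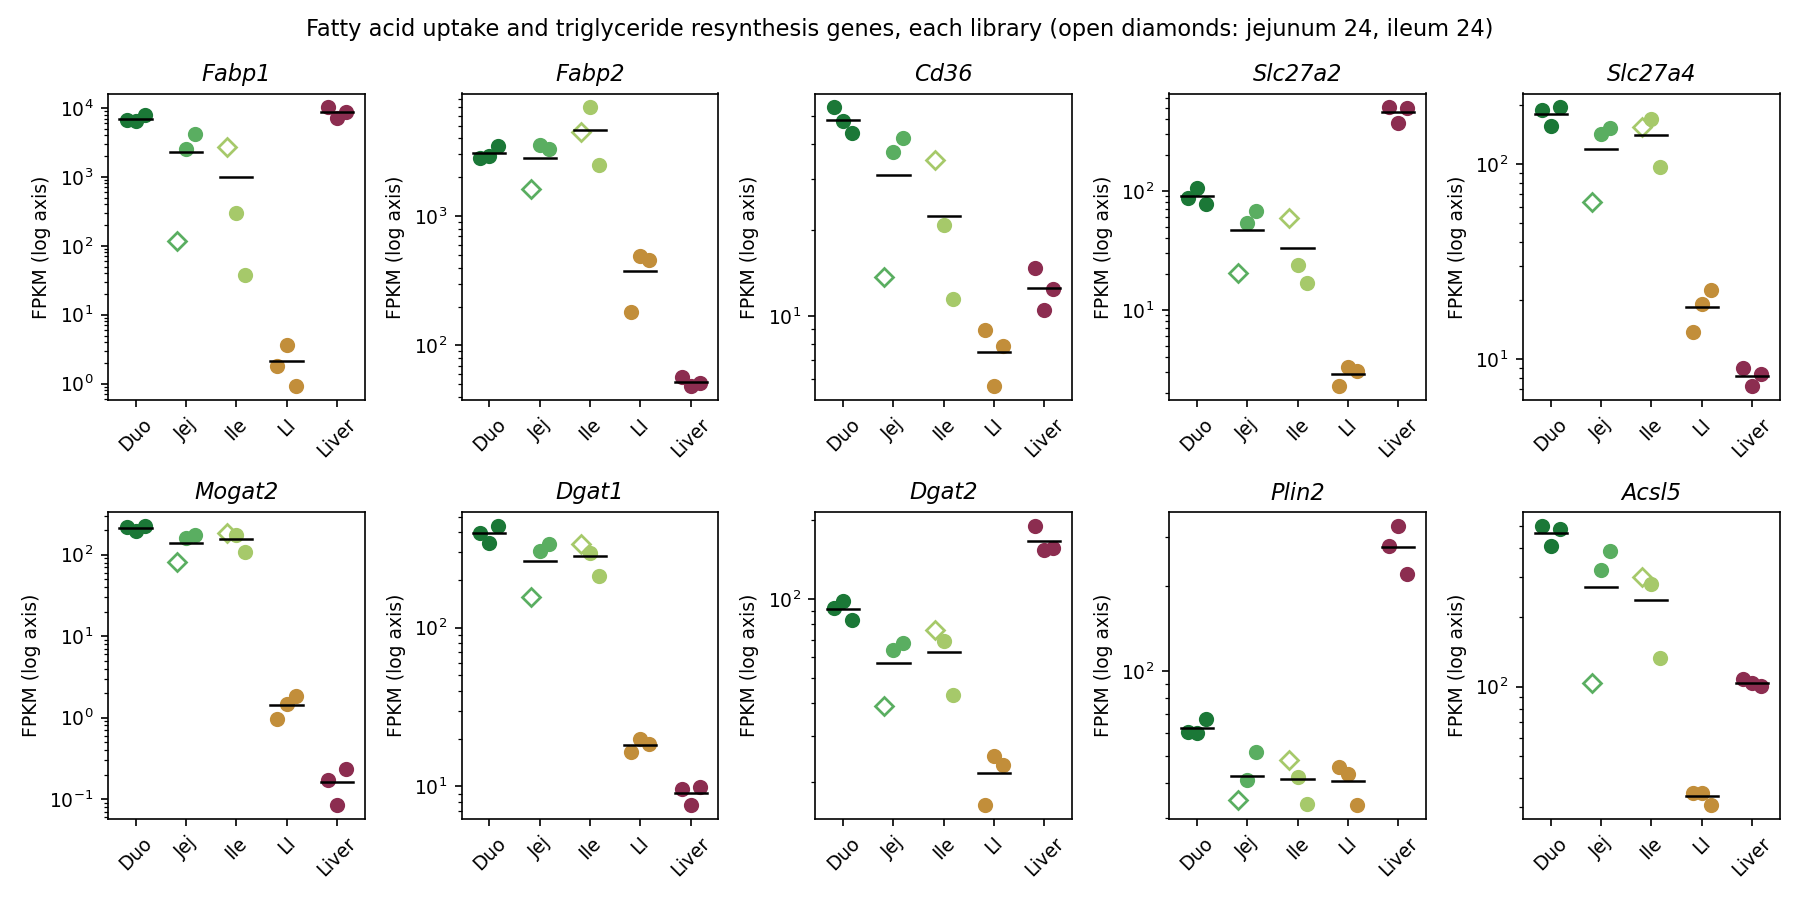
FPKM of each of the 10 genes in every library (log axis), with tissues from duodenum (Duo), jejunum (Jej), ileum (Ile) and large intestine (LI) to liver; points are libraries, bars are means, and open diamonds mark the libraries labelled jejunum 24 and ileum 24. Fabp1 in liver lay at 7131 to 10129 FPKM and in large intestine at 0.917 to 3.69, while Fabp2 was lowest in liver.

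The membrane uptake genes did not share an order of tissues. Cd36, the fatty acid translocase, had 53.5, 48.0 and 43.5 FPKM in duodenum, 13.7, 37.4 and 42.0 in jejunum, 35.0, 20.7 and 11.5 in ileum, 8.90, 5.67 and 7.82 in large intestine, and 14.7, 10.5 and 12.4 in liver. Duodenum was the highest tissue, 3.86-fold over liver (1.88, SE 0.41, adjusted p = 0.00109 by limma). Cd36 was also called higher in jejunum (1.11, SE 0.41, adjusted p = 0.0238) although jejunum 24 lay among the liver values; without the 2 libraries the difference was 1.60 (SE 0.23, adjusted p = 3.81e-05). That call did not survive median-of-ratios scaling (0.44), quantile normalization (0.52), or leaving out liver 26, liver 27, jejunum 27 or jejunum 28. Ileum missed the test at 0.67 (adjusted p = 0.146), and passed it without ileum 27 (1.06). Large intestine lay below liver by -0.68 (adjusted p = 0.138) without overlap, and only the median-of-ratios and quantile values (-1.44 and -1.47) passed.

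Slc27a2 encodes the fatty acid transport protein with acyl-CoA synthetase activity that is prominent in liver and kidney. It had 87.1, 106 and 77.6 FPKM in duodenum, 20.3, 53.2 and 67.5 in jejunum, 59.1, 23.8 and 16.8 in ileum, 2.28, 3.28 and 3.08 in large intestine, and 501, 371 and 500 in liver. The intestinal values lay below all liver values, lowest in large intestine. It was lower than in liver in all 4 sections, by -2.33 (duodenum, SE 0.45, adjusted p = 4.41e-04), -3.40 (jejunum), -3.93 (ileum) and -6.88 (large intestine, SE 0.45, adjusted p = 1.76e-08 by limma). In the same order the liver mean stood 5.06-fold, 9.73-fold, 13.8-fold and 159-fold above the section.

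Slc27a4, the fatty acid transport protein of the enterocyte, had 189, 156 and 195 FPKM in duodenum, 63.9, 143 and 154 in jejunum, 154, 171 and 96.7 in ileum, 13.7, 19.1 and 22.7 in large intestine, and 9.02, 7.25 and 8.34 in liver. Its values in the small intestine lay far above liver, with large intestine in between. The means were 21.9-fold, 14.6-fold and 17.1-fold higher in duodenum, jejunum and ileum than in liver (log2 4.30, 3.62 and 3.91, SE 0.30 each). Large intestine was 2.26-fold higher (1.06, SE 0.30, adjusted p = 0.00531 by limma), a call close to the threshold that was lost with median-of-ratios scaling (0.31), quantile normalization (0.32), and without liver 26 or large intestine 27.

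Acsl5, a long-chain acyl-CoA synthetase that readies fatty acids for triglyceride synthesis, had 500, 409 and 486 FPKM in duodenum, 104, 321 and 389 in jejunum, 300, 279 and 133 in ileum, 34.6, 34.6 and 30.6 in large intestine, and 108, 104 and 101 in liver. Duodenum was highest, large intestine lowest, and the library labelled jejunum 24 lay within the liver range. Acsl5 was higher in duodenum than in liver (2.14, SE 0.41, adjusted p = 3.25e-04 by limma) and lower in large intestine (-1.62, SE 0.41, adjusted p = 0.00236). The calls in jejunum (1.17, adjusted p = 0.0173) and ileum (1.09, adjusted p = 0.0244) lay close to the threshold: without the 2 libraries jejunum stood at 1.76 (adjusted p = 1.83e-05) and ileum lost its call at 0.88. Median-of-ratios scaling left neither, at 0.46 and 0.43; jejunum also lost its call in a fit to the 2 tissues alone (adjusted p = 0.0588) and without jejunum 27 or jejunum 28, and ileum without liver 26, liver 27, ileum 24 or ileum 25.

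Among the resynthesis genes, Mogat2 and Dgat1 had their highest mean in duodenum and Dgat2 in liver. Mogat2, the monoacylglycerol acyltransferase of the enterocyte, had 218, 197 and 225 FPKM in duodenum, 81.9, 161 and 173 in jejunum, 185, 175 and 108 in ileum, 0.955, 1.48 and 1.82 in large intestine, and 0.170, 0.0849 and 0.232 in liver. The small intestine stood apart from both other tissues, with no overlap. Against liver the differences were 7.53 in duodenum (SE 0.26, adjusted p = 1.24e-11 by limma), 6.84 in jejunum and 7.04 in ileum. Large intestine was called higher (1.04, SE 0.26, adjusted p = 0.00210), but its level was near 1 FPKM and the call was lost with median-of-ratios scaling (0.80), quantile normalization (0.27), and without liver 26 or large intestine 27.

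Dgat1 and Dgat2 encode unrelated enzymes that catalyse the same last step, from diacylglycerol to triglyceride. Dgat1 had 395, 343 and 437 FPKM in duodenum, 155, 304 and 335 in jejunum, 336, 296 and 211 in ileum, 16.5, 19.8 and 18.6 in large intestine, and 9.68, 7.66 and 9.86 in liver. All small intestinal libraries lay above 100 FPKM and all others below 20. Dgat1 was 43.2-fold higher in duodenum than in liver (5.29, SE 0.25, adjusted p = 1.86e-10 by limma), 29.2-fold in jejunum (4.65) and 31.0-fold in ileum (4.79). Large intestine missed the size limit at 0.94 (adjusted p = 0.00284), and passed it with a pseudocount of 0.1, at 1.36 with all libraries set to the same sum, and without liver 27 or large intestine 24.

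Dgat2 had 92.2, 98.5 and 83.3 FPKM in duodenum, 39.0, 63.9 and 68.2 in jejunum, 76.2, 69.4 and 43.2 in ileum, 16.4, 25.3 and 23.2 in large intestine, and 190, 154 and 157 in liver. Liver was highest throughout. Dgat2 was lower than in liver in jejunum (-1.57), ileum (-1.43) and large intestine (-2.91, SE 0.24, adjusted p = 5.38e-08 by limma). Duodenum missed the size limit at -0.86 (adjusted p = 0.00448), and passed with median-of-ratios scaling (-1.45) and quantile normalization (-1.01).

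Plin2, a coat protein of cytosolic lipid droplets, had 60.8, 60.0 and 67.7 FPKM in duodenum, 34.7, 41.0 and 51.6 in jejunum, 48.2, 41.8 and 33.6 in ileum, 45.3, 42.9 and 33.4 in large intestine, and 278, 328 and 222 in liver. The liver values lay above all others and the duodenum values above those of the other sections, while jejunum, ileum and large intestine were close to each other. Plin2 was lower than in liver in all 4 sections, with differences of -2.10, -2.67, -2.71 and -2.73 from duodenum to large intestine (SE 0.18 each; adjusted p = 9.94e-08 in duodenum and smaller elsewhere, by limma).

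**Figure D2:**
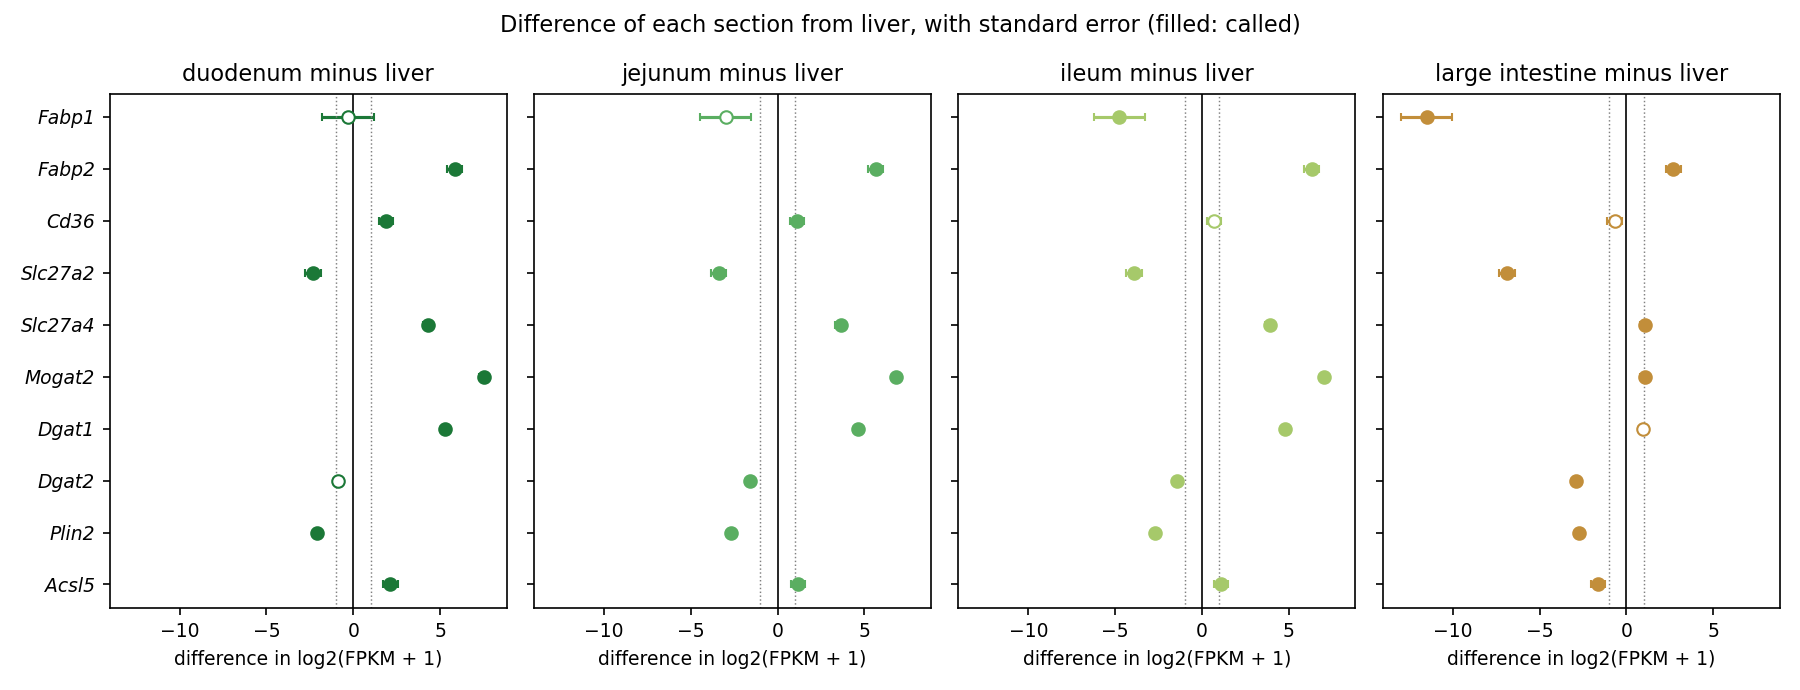
Difference of each section from liver in log2(FPKM + 1) for the 10 genes, with standard error from limma; filled points passed the test, and dotted lines mark a difference of 1 either way. Fabp1, Slc27a2, Dgat2 and Plin2 lay left of 0 in every section and Fabp2, Slc27a4, Mogat2 and Dgat1 right of 0, not all of them filled. Fabp1 reached -11.51 in large intestine.

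Without the 2 libraries the jejunum differences from liver were 6.00 for Fabp2, -2.90 for Slc27a2, 4.02 for Slc27a4, 7.18 for Mogat2, 4.998 for Dgat1, -1.32 for Dgat2 and -2.54 for Plin2. The ileum differences of these genes were 6.28, -4.43, 3.82, 6.90, 4.65, -1.58 and -2.83 in the same order. All 14 were called, as they were with both libraries.

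Read as a group, 6 of the 10 genes were higher in duodenum than in liver and 2 were lower, where 30.6% and 9.19% of all genes tested were called. Jejunum had 6 higher and 3 lower, against 36.9% and 8.94% of all genes. Ileum had 5 higher and 4 lower, or 4 and 4 without the 2 libraries, against 34.3% and 9.24%. Large intestine had 3 higher and 5 lower, against 41.8% and 8.99%. The median difference over the 10 genes was 2.01, 1.14, 0.88 and -1.15 from duodenum to large intestine, where the median of all genes was 0.57, 0.73, 0.68 and 0.83. The positive median of all genes depends on scaling: in duodenum against liver it was 0.17 under median-of-ratios scaling or 0.02 under quantile normalization, and over all genes 4211 higher and 1264 lower became 2817 and 1907, or 2425 and 1926. Median-of-ratios scaling gave 4 higher and 4 lower of the 10 in jejunum (21.7% and 14.3% of all genes) and 1 higher and 6 lower in large intestine (23.4% and 14.7%).

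All 7 adipocyte markers lay above liver in every intestinal library, and they summed to 113 to 461 FPKM in the sections and 12.9 to 22.9 in liver, where Lep was at 0. Of 8 pancreatic acinar markers only Clps, the colipase gene, did so, with 34.9 to 392 FPKM in the sections and at most 0.780 in liver; the other 7 summed to 0.186 to 87.8 in the sections and 0.757 to 3.34 in liver. Each of those 7 was highest in duodenum 28, where Ctrb1 had 29.8 FPKM against 1.37 and 0.734 in the other duodenum libraries. Smooth muscle markers (6 genes) summed to 476 to 1048 FPKM over the small intestinal libraries, 2286 to 3322 in large intestine and 6.91 to 13.1 in liver. Hepatocyte markers (10 genes) summed to 20.9 to 207 FPKM in the sections and 43315 to 53768 in liver. Cps1 alone had 116 to 163 FPKM in small intestinal libraries. The other 9 summed to 10.7 to 45.4 in the sections and 42760 to 53050 in liver. The part of these cell types in the differences of the 10 genes was not tested.

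The large intestine was lower than each part of the small intestine for 9 of the 10 genes, with Plin2 the exception. Against duodenum 6.84% of all genes were called lower, against jejunum 5.23% and against ileum 5.5%. Fabp1 differed by -11.21 from duodenum (SE 1.47, adjusted p = 6.01e-05 by limma), -8.53 from jejunum and -6.76 from ileum; without the 2 libraries the last 2 were -10.13 and -5.21. Mogat2 differed by -6.49 from duodenum (SE 0.26, adjusted p = 7.73e-10), -5.80 from jejunum and -6.00 from ileum, where the small intestinal means were 151-fold, 97.8-fold and 110-fold above large intestine; without the 2 libraries the differences were -6.13 from jejunum and -5.86 from ileum. Smooth muscle markers stood at 2286 to 3322 FPKM in large intestine, above the 476 to 1048 of the small intestine, and enterocyte markers at 1210 to 1651, below it; their part was not tested. Without the 2 libraries, 8 of 10 were lower than in ileum (5.33% of all genes), since Cd36 lay at -0.98 and missed the size limit where it had been -1.35 (adjusted p = 0.0170). Cd36 also lost that call without ileum 24 or large intestine 25 alone and with all libraries set to the same sum, where Dgat2 lost its call against jejunum (-0.91). Plin2 in large intestine averaged 40.5 ± 6.30 FPKM (SD, n = 3), against 62.8 ± 4.22 in duodenum (-0.63, adjusted p = 0.00740, below the size limit), 42.4 ± 8.54 in jejunum and 41.2 ± 7.34 in ileum (-0.02, SE 0.18).

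For the 10 genes, 2 libraries of the small intestine lay below the rest. Of the 9 small intestinal libraries, jejunum 24 and ileum 27 were the 2 lowest for all 10 genes, jejunum 24 the lowest for 6 and ileum 27 for 4. The share of all genes with these 2 libraries lowest was not counted, so this order is not shown to be particular to the 10. The same 2 libraries were also the 2 lowest for 5 of 10 enterocyte markers outside the set (Alpi, Sis, Treh, Slc5a1 and Cdh17), with Sis, the sucrase-isomaltase gene, at 124 and 150 FPKM. The rest did not have both libraries lowest. Among them Mep1a ran the other way, at 222 and 295 FPKM against 35.7 to 41.8 in the duodenum libraries. Smooth muscle markers had their highest sum of the small intestine, 1048 FPKM, in jejunum 24, while the ileum libraries, ileum 27 included, had 518 to 567. The part of cell content in these low values was not tested. The duodenum libraries were among the highest 3 for 9, 8 and 9 of the genes. Jejunum and ileum varied more between libraries, with coefficients of variation from 20.1% to 89.7% in jejunum and 17.8% to 145% in ileum, against 6.71% to 16.3% in duodenum.

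Jejunum against duodenum called 0 of the 10 genes, where 0.807% of all genes were higher and 0.981% lower. In limma 7 of the 10 had an unadjusted p under 0.05, as did 5929 of the 13757 genes. All 10 differences were negative, with a median of -0.70, where the median of all genes was 0.15. Leaving out jejunum 28 gave 2 calls, Slc27a2 and Acsl5, and leaving out ileum 24 gave Slc27a2 alone. Without the 2 libraries, the differences shrank, with Slc27a2 at -0.57 where it had been -1.08 and Fabp1 at -1.09 where it had been -2.69.

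Ileum against duodenum called 1 gene lower, Slc27a2 (-1.60, SE 0.45, adjusted p = 0.0331 by limma), with 33.2 ± 22.6 FPKM in ileum and 90.4 ± 14.7 in duodenum (SD, n = 3 each); 1.42% of all genes were lower and 1.14% higher. That call was lost when any duodenum library, ileum 25 or ileum 27 was left out, with quantile normalization (adjusted p = 0.0510) and in a fit to the 2 tissues alone (adjusted p = 0.0803). Fabp1 (-4.46, adjusted p = 0.0584), Cd36 (-1.20, adjusted p = 0.0620) and Acsl5 (-1.05, adjusted p = 0.0901) missed it. With jejunum 24 alone left out each passed at an unchanged difference, since the tissues share an estimate of the spread. Fabp1 and Cd36 passed with ileum 24 alone left out. Fabp1 also passed with quantile normalization (adjusted p = 0.0389) and a filter of 5 FPKM, and Cd36 with the same sum. Without jejunum 24 and ileum 24 the count was 4, with 2.61% of all genes lower: Fabp1 (-6.00, SE 0.70, adjusted p = 3.03e-04), Slc27a2 (-2.11), Cd36 (-1.58) and Acsl5 (-1.26). Ileum against jejunum called 0 of the 10 genes and 0% of all genes either way, and 0 of the 10 and 927 of all genes had an unadjusted p under 0.05 in limma. Without the 2 libraries 3 of the 10 were lower, with 0.826% of all genes lower: Fabp1 (-4.91, SE 0.77, adjusted p = 0.00881), Slc27a2 (-1.54) and Cd36 (-1.30). Fabp2, Slc27a4, Mogat2, Dgat1, Dgat2 and Plin2 were called in no comparison within the small intestine, with or without these libraries. Some passed the adjusted p in limma and missed only the size limit. Against duodenum these were Plin2 in jejunum (-0.57, adjusted p = 0.0371) and ileum (-0.61, adjusted p = 0.0356), and Dgat2 in jejunum (-0.71, adjusted p = 0.0455). Without the 2 libraries they were Mogat2 (-0.63), Dgat1 (-0.64), Dgat2 (-0.72) and Plin2 (-0.73) in ileum against duodenum.

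**Figure D3:**
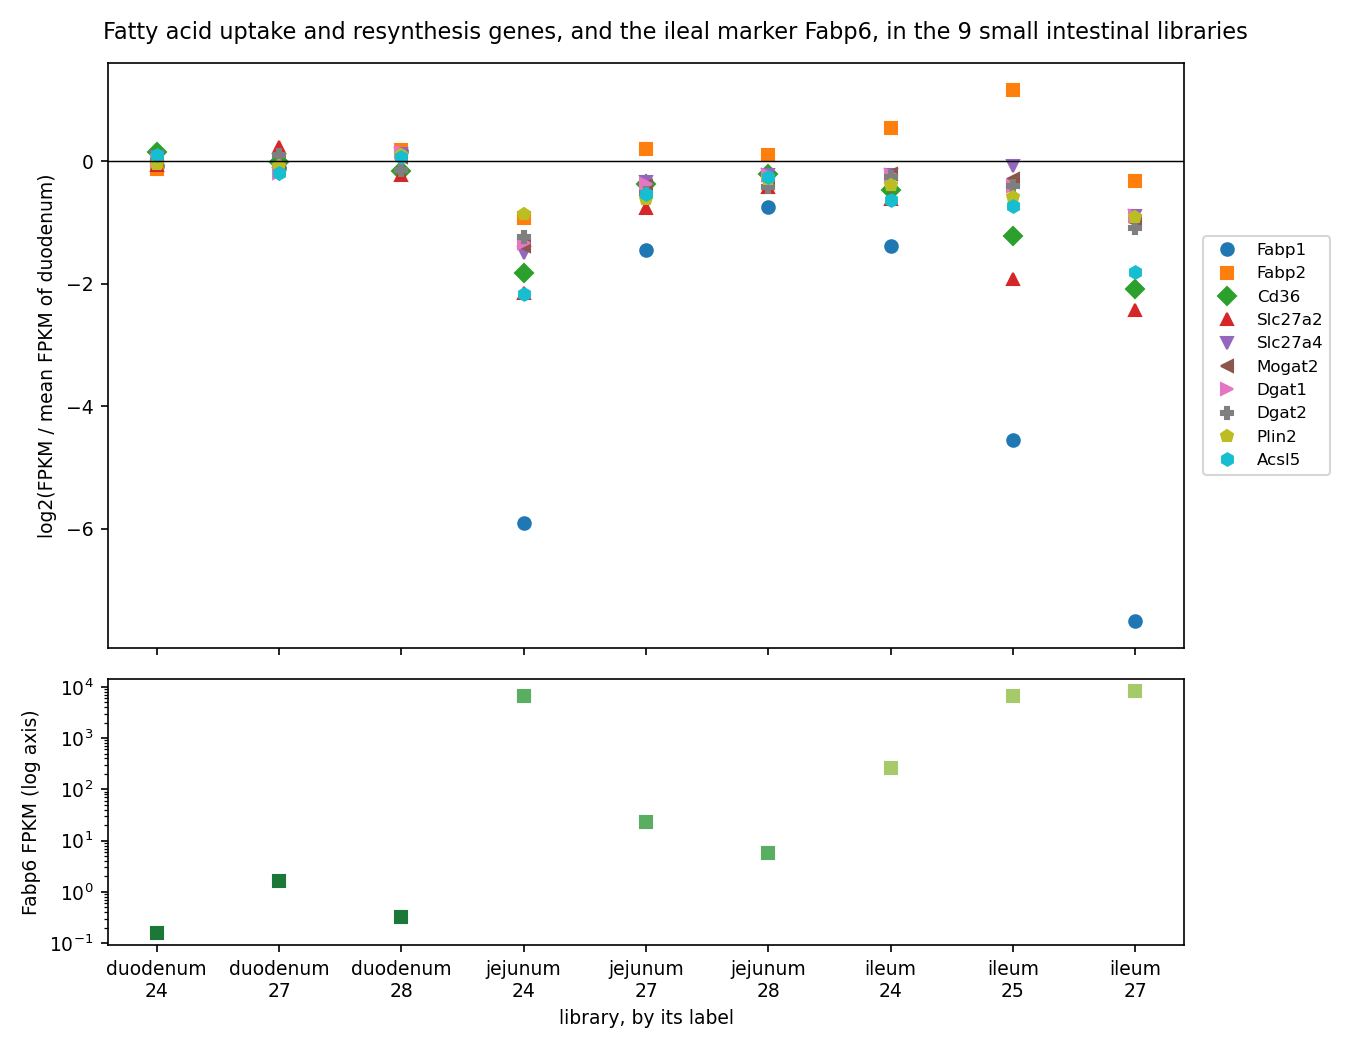
Top, log2 of FPKM over the duodenum mean for the 10 genes in the 9 small intestinal libraries; bottom, FPKM of Fabp6 (log axis). Points are libraries named by their labels; jejunum 24 and ileum 27, at 6731 and 8112 FPKM of Fabp6, lay lowest for all 10 genes, and Fabp1 had 116 and 38.2 FPKM there.

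Ratios within a library compare 2 genes without any scaling between libraries and are given as description. The log2 ratio of Fabp1 to Fabp2 averaged 1.18 ± 0.04, -1.31 ± 2.19, -3.76 ± 2.72 and -7.56 ± 1.23 from duodenum to large intestine and 7.35 ± 0.13 in liver (SD, n = 3 each). Without jejunum 24 (-3.80) and ileum 24 (-0.74) the means of the other 2 libraries were -0.06 in jejunum and -5.28 in ileum. Large intestine libraries held 101 to 498 times as much Fabp2 as Fabp1 per length, and liver libraries 147 to 176 times as much Fabp1 as Fabp2. The log2 ratio of Slc27a2 to Slc27a4 averaged -0.999 ± 0.402, -1.42 ± 0.23, -2.25 ± 0.77 and -2.67 ± 0.18 from duodenum to large intestine and 5.79 ± 0.12 in liver, with -1.31 in jejunum and -2.68 in ileum without the 24 libraries. The log2 ratio of Dgat2 to Dgat1 stayed between -2.39 and -1.80 in all 9 small intestinal libraries, and averaged 0.22 ± 0.20 in large intestine and 4.20 ± 0.19 in liver. The log2 ratio of Mogat2 to its chromosomal neighbour Dgat2 lay between 1.003 and 1.435 in the same 9 libraries, and averaged -3.96 ± 0.24 in large intestine and -10.12 ± 0.71 in liver. Both of these last ratios in jejunum 24 and ileum 24 fell among those of the other small intestinal libraries.

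**Figure D4:**
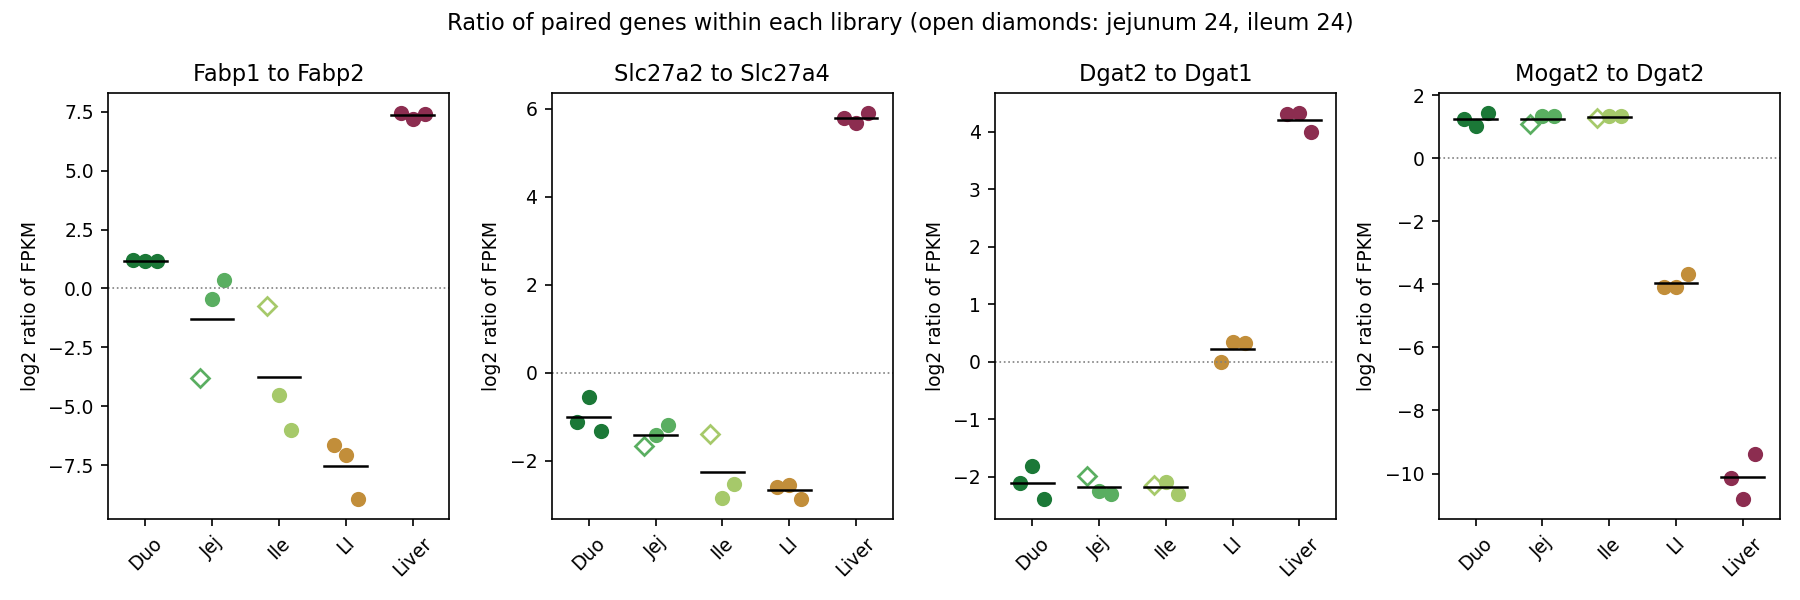
Log2 ratio of FPKM of 2 genes within each library, by tissue from duodenum (Duo) to large intestine (LI) and liver; points are libraries, bars are means, and open diamonds mark jejunum 24 and ileum 24. The ratio of Fabp1 to Fabp2 ran from 1.18 in duodenum to -7.56 in large intestine, while that of Mogat2 to Dgat2 lay between 1.003 and 1.435 throughout the small intestine.

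Other genes of the route were counted in 8 lists, and a list's median is to be read beside the all-gene medians of 0.57 to 0.83 given above. Its counts are to be read beside the shares of all genes called. From duodenum to large intestine these were 30.6%, 36.9%, 34.3% and 41.8% higher and 9.19%, 8.94%, 9.24% and 8.99% lower. Other scalings changed them, to 21.7% and 14.3% in jejunum with median-of-ratios scaling. Quantile normalization called 2744 of 13757 genes higher and 2113 lower in large intestine. Among 6 other acyl-CoA synthetases, 4 were lower than in liver in duodenum, jejunum and ileum and 2 in large intestine, with list medians of -2.23, -2.02, -1.95 and 0.09 from duodenum to large intestine. Acsl1, the main long-chain acyl-CoA synthetase of liver, stood at 22.6 ± 1.58 FPKM in duodenum and 281 ± 55.5 in liver (-3.56, SE 0.17, adjusted p = 1.86e-10 by limma), and at 7.84 ± 0.463 in large intestine (-4.98). The one higher call in duodenum was Acsl6 (1.54) and in large intestine Acsl3 (2.92). Among the 3 other fatty acid transport proteins tested, Slc27a5, the bile acid and very long-chain ligase of liver, was lower in all 4 sections (-7.81 in duodenum) and Slc27a1 was higher (1.16 in duodenum and 2.51 in large intestine); with quantile normalization a higher call was left in large intestine alone, and with median-of-ratios scaling duodenum had none. The list medians were 0.56, 0.84, 0.75 and 0.91.

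Of 4 other fatty acid binding proteins tested, 1 was higher and 2 lower in duodenum and in large intestine, and 2 and 2 in jejunum and ileum (medians -0.23, 0.95, 0.92 and 0.30 from duodenum to large intestine), and large intestine had 2 and 2 in the fit without the 24 libraries. Fabp6, listed at 0 in liver, led the higher calls in jejunum and ileum, with the values above. Fabp5 was lower in all 4 sections (-1.80 in duodenum). Fabp4, the adipocyte binding protein, had 93.1 ± 39.2 FPKM in duodenum and 14.4 ± 4.07 in liver (2.56, SE 0.37, adjusted p = 3.02e-05 by limma), beside the adipocyte sums given above, of which it is part.

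Of 13 genes listed for the glycerol phosphate route and other monoacylglycerol acyltransferases, the 11 tested all belonged to the glycerol phosphate route. These 11 were mixed, with 5, 5, 4 and 5 higher and 4, 4, 4 and 6 lower from duodenum to large intestine (medians 0.23, 0.08, 0.44 and -1.05), or 5 and 3 in jejunum and 5 and 4 in ileum without the 24 libraries. The split was 4 higher and 5 lower in jejunum with median-of-ratios scaling, and 3 and 4 in duodenum and 3 and 6 in large intestine with quantile normalization. Gpam, the mitochondrial glycerol-3-phosphate acyltransferase, had 2.68 ± 0.290 FPKM in duodenum and 37.6 ± 3.50 in liver (-3.39, SE 0.15, adjusted p = 6.68e-11 by limma), while Agpat9, another glycerol phosphate acyltransferase, was higher in duodenum (4.01), jejunum (3.63) and ileum (3.66). Agpat4 was highest relative to liver in large intestine (4.67).

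Of 10 lipid droplet coat and assembly genes tested, 4 were higher and 3 lower in each part of the small intestine and 5 and 4 in large intestine (medians 0.39, 0.07, 0.04 and 0.68), the last 2 and 4 with quantile normalization. Cidec, a droplet fusion protein also on the adipocyte list, was higher in all 4 (3.76 in duodenum), and Fitm1, which helps droplets form, was lower in all 4 (-4.48 in duodenum). Among 10 triglyceride hydrolysis genes, 4, 6, 5 and 4 were lower from duodenum to large intestine and 2, 1, 3 and 0 higher (medians -0.94, -1.37, -1.36 and -0.59); with median-of-ratios scaling the split was 1 higher and 6 lower in each part of the small intestine. Lipc, the hepatic lipase, had 0.122 ± 0.0996 FPKM in duodenum and 66.3 ± 18.6 in liver (-5.87, SE 0.18, adjusted p = 1.26e-12 by limma). Lipe, the hormone-sensitive lipase, was higher in duodenum (2.55), jejunum (2.17) and ileum (2.40).

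Of 12 chylomicron and very low density lipoprotein assembly genes, 5 were higher and 0 lower in duodenum, 3 and 4 in jejunum, 3 and 3 in ileum, then 0 and 7 in large intestine. The list medians were 0.68, 0.52, 0.51 and -1.92. Without the 2 libraries the splits were 3 and 2 in jejunum and 3 and 4 in ileum, and with median-of-ratios scaling duodenum had 3 higher and 1 lower. The chylomicron apolipoprotein gene Apoa4 had 7817 ± 892 FPKM in duodenum and 41.5 ± 12.9 in liver (7.56, SE 1.3, adjusted p = 2.26e-04 by limma), and Apoa1 had 2.91 ± 1.85 in large intestine and 6720 ± 1114 in liver (-10.88). Apoc3 was lower in jejunum (-2.65) and ileum (-2.95). Of 10 fatty acid sensing receptors and regulators, 4, 4, 4 and 5 were higher and 1, 2, 1 and 3 lower from duodenum to large intestine (medians 0.51, -0.02, -0.06 and 0.88), or 4 and 1 in jejunum and 4 and 2 in ileum without the 24 libraries. With median-of-ratios scaling the splits were 3 and 2, 4 and 4, 4 and 3, and 5 and 4, and quantile normalization gave 4 and 4 in large intestine. Hnf4g, a nuclear receptor close to Hnf4a, had 105 ± 25.1 FPKM in duodenum and 0.127 ± 0.0561 in liver (6.53), Ppara, the fatty acid receptor that drives oxidation genes, was lower in duodenum (-1.24), and Ffar4, a long-chain fatty acid receptor, was higher in large intestine (4.15) where Creb3l3 was lower (-5.58).

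Genes whose log2(FPKM + 1) ran most like each of the 10 over the 15 libraries were taken as a description, by Pearson's r. Libraries of a tissue share that tissue, so r is driven by differences between 5 tissues. For Mogat2 the closest was Ggt1 (r = 0.9994), then Dgat1 (r = 0.9978), and for Dgat1 it was Tm4sf5 (r = 0.9981). Dgat1 was second for Slc27a4 (r = 0.9934) after Btnl2 (r = 0.9946), and Slc27a2 second for Dgat2 (r = 0.9824) after Mocos (r = 0.9825). The closest were Ugt2a3 for Fabp1 (r = 0.9963), Rnf128 for Fabp2 (r = 0.995), Cyp2b13 for Cd36 (r = 0.9798), Tprkb for Slc27a2 (r = 0.9959), Slc25a45 for Acsl5 (r = 0.9922) and Cyp2c67 for Plin2 (r = 0.9931). Apoa4 came second for Acsl5 (r = 0.9881).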

How the data were processed

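RNA from liver and 4 intestinal sections was sequenced in 15 libraries from a TruSeq RNA kit with 3 µg of RNA on an Illumina HiSeq, per the labels' protocols. The authors deposited FPKM values for 23845 gene records, and all 15 value columns matched a sample, with 0 left over. Per the submitters' processing notes, CASAVA, FastQC, TopHat2 2.0.3, Bowtie 0.12.8, SAMtools 0.1.18 and Cufflinks 2.0.0 were used, with mm10. Whole reads were not recovered, so the files give no depth and intervals for counting error were left out. In 27 records a date stands in place of the symbol and 1 line was empty. Records that share a symbol were summed (754 records), leaving 23349 genes. One item is not reported here.

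Genes with at least 1 FPKM in at least 3 libraries were kept (13757) and taken as log2(FPKM + 1). A model with a mean for each tissue was fitted over the 15 libraries with limma 3.58.1 (R 4.3.3), with eBayes trend and robust settings (statmod 1.5.0), and p-values were adjusted by Benjamini-Hochberg over all genes in each of the 10 comparisons of tissues. A call needed an adjusted p under 0.05 and a log2 difference of at least 1. No count test was run, since FPKM are not counts. The procedure was tested on simulated data. Members, lists and thresholds were chosen with earlier results of these data known. Genes named are the 10 members, the called gene with the largest difference each way in each list against liver, the gene most like each member by Pearson's r, and the most abundant marker of some lists. Other markers, such as Sis, Mep1a and Cps1, were picked for mention. So were genes second by r for some members, and those of the other members are left out. Tables and figures were made with Python 3.11.15, pandas 2.3.3, numpy 2.4.6 and matplotlib 3.10.9. Alternatives were median-of-ratios, quantile and same-sum scaling, a pseudocount of 0.1, no filter, a filter of 5 FPKM, records kept apart, a replicate block, a fit to only 2 tissues, both 24 libraries left out, and each library left out in turn.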

Additional observations from a re-analysis of the deposited data

How the results depend on the processing

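Counts of calls, higher and lower pooled, moved by more than 1.5 times in 32 of 500 recomputations, all but 1 of them within the small intestine. Pooling hides moves by direction against liver. In large intestine 5750 higher and 1237 lower became 3220 and 2018 with median-of-ratios scaling, or 2744 and 2113 with quantile normalization. Of the 10 genes, 3 higher and 5 lower became 1 and 6 with either. In jejunum 5071 higher and 1230 lower became 2982 and 1965, or 2496 and 2025. For jejunum against duodenum the count of all genes was 246, and became 461 with a pseudocount of 0.1, 30 in a fit to only the 2 tissues and 101 without jejunum 24 and ileum 24; leaving out each library in turn gave 66 to 473 genes and 0 to 2 of the 10. For ileum against duodenum 352 genes became 557 with a pseudocount of 0.1, 68 with a replicate block and 627 without both libraries (183 to 553 leaving out each library). The 1 of the 10 called there became 2 with the same sum or a filter of 5 FPKM, 0 with a replicate block or only the 2 tissues, and 4 without both libraries (0 to 4 leaving out each library). For ileum against jejunum 0 genes became 16 with records kept apart and 197 without both libraries, and 0 of the 10 became 3. For large intestine against ileum the same sum gave 2919 genes in place of 1898. The cause was not tested.

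Differences that changed sign were all without a call in the main fit. Fabp1 in duodenum against liver became 0.15 with quantile normalization, and Fabp2 in ileum against duodenum -0.22. Without both 24 libraries Fabp2 in jejunum against duodenum became 0.16 (-0.41 to 0.16 leaving out each library), and ileum against jejunum became -0.20 for Slc27a4 (-0.12 to 0.53), -0.28 for Mogat2 (-0.14 to 0.45), -0.35 for Dgat1 (-0.21 to 0.34) and -0.27 for Dgat2 (-0.11 to 0.38). For Plin2, ileum against jejunum became 0.004 with median-of-ratios scaling and 0.032 with a block (-0.17 to 0.11 leaving out each library); large intestine against jejunum became 0.38 with the same sum and 0.012 with a block (-0.19 to 0.09); large intestine against ileum became 0.43 with the same sum and 0.10 without both libraries (-0.16 to 0.11). Acsl5 in ileum against jejunum became 0.03 with a block (-0.66 to 0.30).

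The numbers in the titles are not said to mark animals. Of 22 same-numbered pairs of libraries 4 had deviations correlated over 0.1 (range -0.49 to 0.16), and 4 of 14 libraries correlated best with their own number. These values do not show whether the numbers mark animals, and the block is an alternative only. The replicate block took away the calls of Cd36 and Acsl5 in jejunum against liver (0.89 and 0.97), Fabp1 and Acsl5 in ileum against liver (-5.04 and 0.999), Slc27a4 and Mogat2 in large intestine against liver (0.89 and 0.93), Slc27a2 in ileum against duodenum (-1.46), and Cd36 in large intestine against jejunum and ileum (-1.61 and -1.35). Scaling moved the median of all genes in large intestine against liver to 0.04 with quantile normalization, where it had been 0.83. With unknown depth, low values such as Mogat2 in liver carry an unknown counting error.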
